A study of Mus musculus with 6 samples.

Results

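The calcium-activated potassium channel genes described here are Kcnma1, Kcnmb2, Kcnmb4, Kcnn1, Kcnn2 and Kcnn3, listed by name with earlier results of these data known, under a rule that uses no measured value, and they are 6 of the 25814 genes in the deposited count table. Their messenger RNA was measured in 3 libraries of Tlr7-/- neurons, which are labelled as lacking Tlr7, a receptor that detects single-stranded RNA in endosomes, and in 3 libraries of wild-type (WT) neurons. Both genotypes were of the C57BL/6 background, and both sets of cultures were primary neurons of cortex and hippocampus mixed together, grown in Neurobasal medium and DMEM with B27 supplement and harvested on day 18 in vitro. Polyadenylated RNA was made into stranded libraries and sequenced on an Illumina NextSeq500. The labels do not describe the Tlr7 allele, and they do not say whether the replicates of a genotype were separate cultures or came from separate animals. The p-values therefore measure only how far these libraries differ among themselves, and that spread may be technical.

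Calcium-activated potassium channels open when calcium rises inside the cell, let potassium out and so bring the membrane back towards rest. The BK channel is a tetramer of the pore protein encoded by Kcnma1 and responds to both voltage and calcium; its auxiliary β subunits, among them those encoded by Kcnmb2 and Kcnmb4, set how fast it opens and closes and how it responds to toxins. The SK channels, whose pore proteins are encoded by Kcnn1, Kcnn2 and Kcnn3, do not respond to voltage but sense calcium through bound calmodulin. In cortical and hippocampal neurons BK channels are known for shaping the action potential and the fast afterhyperpolarization, and SK channels for the medium afterhyperpolarization and for damping synaptic responses in dendritic spines.

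The BK pore gene Kcnma1 (ENSMUSG00000063142) lies on chromosome 14, 23289431 to 24014491, minus strand of GRCm38. The BK β subunit genes are Kcnmb2 (ENSMUSG00000037610; chromosome 3, 31902507 to 32200180, plus strand) and Kcnmb4 (ENSMUSG00000054934; chromosome 10, 116417861 to 116473878, minus strand). The SK pore genes are Kcnn1 (ENSMUSG00000002908; chromosome 8, 70842049 to 70863258, minus strand), Kcnn2 (ENSMUSG00000054477; chromosome 18, 45268860 to 45686024, plus strand) and Kcnn3 (ENSMUSG00000000794; chromosome 3, 89520164 to 89675132, plus strand). All 6 positions in the deposited table were identical to those of GENCODE M21.

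Total counts were 23272450 to 25696625 per library. The Tlr7 label could not be checked from its RNA: Tlr7 had 3, 5 and 5 counts in Tlr7-/- libraries 1 to 3, against 4, 8 and 4 counts in WT libraries 1 to 3 (exact permutation test of both sides, p = 0.8). The summed level of 8 pan-neuronal markers was 5253 to 5773 CPM, counts scaled to library size, in Tlr7-/- libraries and 5351 to 5522 CPM in WT libraries, with no marker at 0. The sum hides moves in both directions. Of the 8, 2 were higher and 4 lower in every Tlr7-/- library than in any WT library, beside 16.5% higher and 16.2% lower of all tested genes. Tlr7-/- replicate 1 was named in the labels in the same style as the WT libraries, whereas Tlr7-/- replicates 2 and 3 were named in another style, and these last 2 stood apart on the first principal component of all tested genes, at 46.3 and 44.6, against −21.1 for Tlr7-/- replicate 1 and −29.0 to −15.6 for WT. That component held 62.8% of the variance. The comparison of the 6 channel genes is therefore given for the whole genotype, for Tlr7-/- replicate 1 and for Tlr7-/- replicates 2 and 3. The labels do not say what the naming style stands for.

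The promoters of Kcnmb4 and Kcnma1 are shown, because these genes encode partners in the BK channel and moved in opposite directions across the libraries, and because each start site lies inside a gene on the other strand. The sequences are from RefSeq on GRCm38.p6 and run from 250 bases before to 50 after the start, on the minus strand, at chr10:116473474-116473773 for Kcnmb4 and chr14:24004156-24004455 for Kcnma1. Capitals mark the GC box, the letters GGGCGG on either strand, which reads CCGCCC where the box is on the other strand.
Kcnmb4: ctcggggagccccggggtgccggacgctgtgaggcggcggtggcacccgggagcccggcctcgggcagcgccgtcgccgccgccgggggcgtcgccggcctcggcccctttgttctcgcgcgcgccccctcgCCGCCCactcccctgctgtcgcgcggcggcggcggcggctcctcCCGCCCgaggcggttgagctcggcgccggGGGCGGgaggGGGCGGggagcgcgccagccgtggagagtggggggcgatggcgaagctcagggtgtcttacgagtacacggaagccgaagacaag
Kcnma1: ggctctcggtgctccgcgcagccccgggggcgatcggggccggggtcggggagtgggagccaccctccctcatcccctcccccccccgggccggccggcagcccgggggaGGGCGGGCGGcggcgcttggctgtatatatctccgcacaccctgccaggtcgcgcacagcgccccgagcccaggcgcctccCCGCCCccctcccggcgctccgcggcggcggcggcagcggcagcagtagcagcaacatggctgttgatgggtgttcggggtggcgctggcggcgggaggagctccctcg
The Kcnmb4 window was 79.0% G and C with 48 CpG dinucleotides and 4 GC boxes, and the Kcnma1 window was 78.0% G and C with 36 CpG dinucleotides and 3 GC boxes, of which a pair overlap each other. Both windows thus lay near the top of all 32851 RefSeq mouse promoters for G and C content, above 98.6% of them for Kcnmb4 and 98.1% for Kcnma1. A GC box was present in 35.7% of those promoters. Neither window held the cAMP response element TGACGTCA, present in 1.79% of promoters, or an E-box, CANNTG, present in 72.3%. The Kcnmb4 window lies within the antisense gene Kcnmb4os2 (chromosome 10, 116473163 to 116475319), and the Kcnma1 window lies within 4930519K11Rik (chromosome 14, 24003844 to 24008335), which had 0 counts in all 6 libraries of the count table and 0.445 CPM in the authors' deposited edgeR table. This is not particular to these 2 genes: 1 of the 2 Kcnn1 windows lies within A230052G05Rik on the other strand (chromosome 8, 70863127 to 70865428). RefSeq promoters of Kcnmb2, Kcnn1 and Kcnn3 were also searched, which makes 5 of the 6 genes with an entry; a GC box was found only at 1 of the 2 starts of Kcnn1, which held 2, and E-boxes at both of its starts, 4 each. GC content there was 47.7% for Kcnmb2, 57.7% for Kcnn3, and 62.3% and 64.3% for the 2 starts of Kcnn1, so the promoters of the 2 BK genes shown stood above those of the other members.

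Levels are compared between genes in TPM, the authors' measure of transcripts scaled by gene length and to the same total in each library. Kcnmb4, whose product makes neuronal BK channels slow to open and resistant to iberiotoxin, had 59.3, 45.2 and 52.1 TPM in Tlr7-/- libraries 1 to 3, against 74.4, 74.5 and 83.6 TPM in WT libraries 1 to 3. Kcnma1 had 57.9, 82.4 and 74.8 TPM in Tlr7-/- libraries, against 49.7, 51.6 and 51.8 TPM in WT libraries. These 2 genes were the highest of the 6, with 88.1% of genes in the table lower than Kcnmb4 and 87.4% lower than Kcnma1 in mean TPM. Their order differed between libraries: Kcnma1 was above Kcnmb4 in Tlr7-/- replicates 2 and 3, whereas Kcnmb4 was the higher in Tlr7-/- replicate 1, by little, and in all 3 WT libraries, where the ranges of the 2 genes did not overlap. Kcnmb2, whose product gives BK channels fast inactivation, was the lowest member, with 3.39, 4.67 and 4.99 TPM in Tlr7-/- libraries, against 3.17, 3.0 and 3.9 TPM in WT libraries.

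Among the SK genes Kcnn2 was the highest, with 23.7, 22.2 and 29.3 TPM in Tlr7-/- libraries, against 20.9, 19.8 and 23.8 TPM in WT libraries. Kcnn3 had 19.6, 14.3 and 15.9 TPM in Tlr7-/- libraries, against 17.5, 16.3 and 15.8 TPM in WT libraries. Kcnn1 had 14.6, 15.5 and 15 TPM in Tlr7-/- libraries, against 17.8, 17.2 and 15.6 TPM in WT libraries. Kcnn2 was above Kcnn3 in 6 of 6 libraries, without overlap, while Kcnn3 and Kcnn1 overlapped and could not be ordered; Kcnn1 in turn was above Kcnmb2 in 6 of 6. The order by mean TPM was therefore Kcnmb4, Kcnma1, Kcnn2, Kcnn3, Kcnn1 and Kcnmb2, with the first 2 overlapping over all libraries. It rests on the counts and gene models of the count table. In the authors' deposited edgeR table, in CPM not scaled by length, Kcnn3 (54.3) was above Kcnn2 (26.9). Kcnmb4 had 4.24 CPM there and Kcnma1 294 CPM, against 30.3 and 279 CPM in the count table. The lowest and highest counts behind the TPM values were 5706 and 8363 for Kcnma1 but 77 and 123 for Kcnmb2, where counting error alone is 11.4% at the lowest count.

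**Figure D1:**
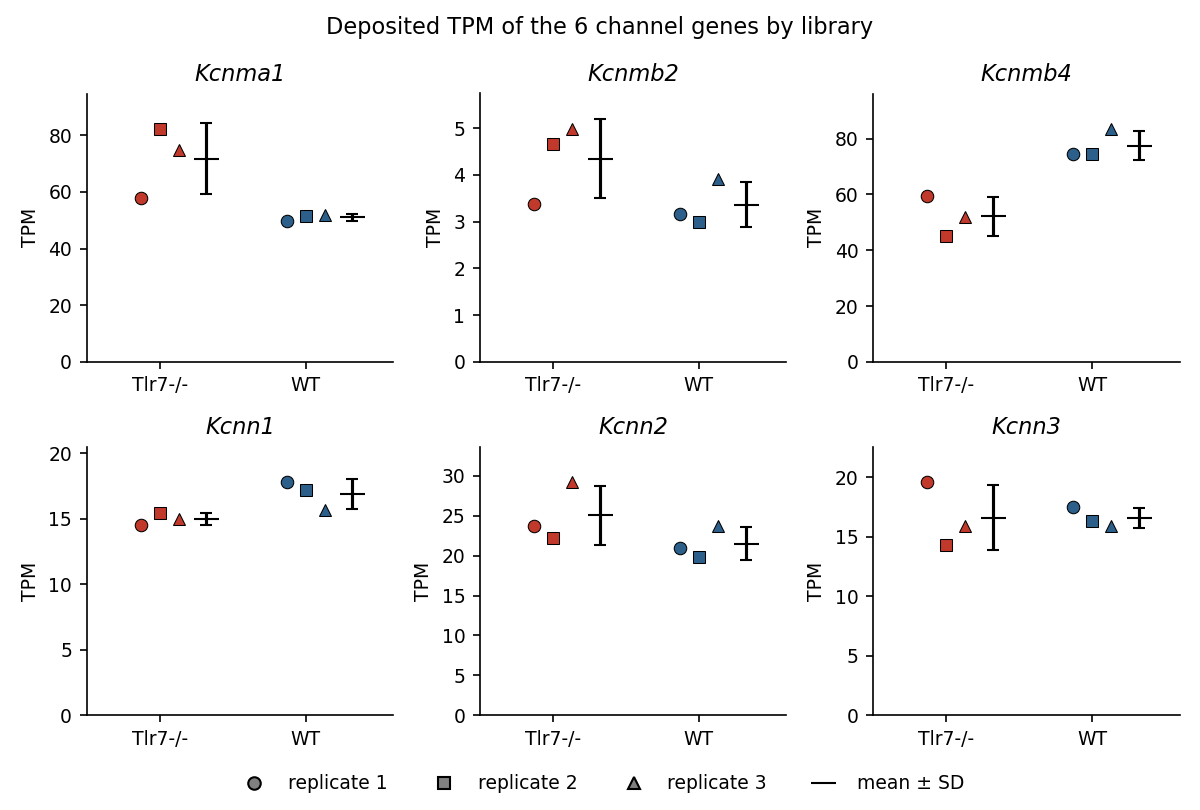
Level of each calcium-activated potassium channel gene in TPM in every library, Tlr7-/- left of WT, with points for libraries, lines for group means and bars for 1 SD (n = 3 each); Tlr7-/- replicate 1, named like the WT libraries, has its own marker. Kcnmb4 was lower and Kcnma1 higher in every Tlr7-/- library than in any WT library, and Tlr7-/- replicate 1 was the nearest to WT for both.

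The TPM values rest on the length of the gene model the authors counted on. This length was computed, up to a scale common to all genes, from the ratio of counts to deposited RPKM. It came to 13471 bp for Kcnma1, 3128 bp for Kcnmb2, 1367 bp for Kcnmb4, 4587 bp for Kcnn1, 3687 bp for Kcnn2 and 2884 bp for Kcnn3. All exons of the gene in GENCODE M21 cover 16976, 3128, 3324, 4587, 7468 and 10451 bp, in that same order of genes. The scale was itself set on GENCODE M21 exon lengths, at the value most common among 11830 genes. Of these genes 24.5% lay within 1% of that value. On this scale the models were as long as the full exon set for Kcnmb2 and Kcnn1. They were shorter for the other 4 members, most of all for Kcnn3.

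Several relatives of these channels that are not members were at or near the limit of detection. Kcnmb1, the β subunit of smooth muscle, had 1 count, in Tlr7-/- replicate 2, and Kcnmb3, another β subunit, had 1 count, in WT replicate 1. Kcnn4, the intermediate-conductance channel of blood and epithelial cells, had 1 to 3 counts in Tlr7-/- libraries and 0 to 5 counts in WT libraries. A count of 0 allows up to 3 counts, or 0.117 to 0.129 CPM in these libraries. Of the leucine-rich repeat proteins that act as BK γ subunits, Lrrc26 had at most 2 counts and Lrrc52 at most 4, and Lrrc38 had 4, 3 and 22 counts in Tlr7-/- libraries, against 11, 10 and 10 counts in WT libraries. Lrrc55, the γ subunit known from the brain, had 9.19, 13.3 and 15.5 CPM in Tlr7-/- libraries, against 8.53, 8.88 and 8.75 CPM in WT libraries.

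The comparison of genotypes asks which of these channel genes differ in neurons without Tlr7. Genotypes were compared in TMM-scaled CPM with edgeR, over the 13947 genes that passed a low-count filter, among them all 6 members. No member passed an adjusted p of 0.05, and neither did any other gene, so the share of all tested genes called was 0%. By DESeq2, 2 of the 6 members passed, beside 1785 genes, or 14.2% of those it tested (8.8% higher and 5.39% lower). At an unadjusted p under 0.05 in edgeR, 3 of 6 members passed, beside 28.2% of all tested genes (3932), 15.6% higher and 12.6% lower. The same 3 members, Kcnma1, Kcnmb4 and Kcnn1, had no overlap between the genotypes, beside 32.7% of all tested genes. Without overlap, 16.5% of all tested genes were higher and 16.2% lower in Tlr7-/- libraries, where the members had 1 higher and 2 lower.

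Of the BK genes, Kcnmb4 had the largest difference of the 6. It had 27.9, 19.7 and 22.9 CPM in Tlr7-/- libraries, against 35.7, 35.9 and 40.0 CPM in WT libraries, with every Tlr7-/- library below every WT library. The log2 fold change was −0.66 ± 0.14 (SE, 95% interval −0.99 to −0.34; edgeR adjusted p = 0.116), or 1.58-fold lower, and by DESeq2 it was −0.66 with an adjusted p of 0.00227. Kcnma1 had 268, 353 and 325 CPM in Tlr7-/- libraries, against 235, 245 and 244 CPM in WT libraries, again without overlap but with Tlr7-/- replicate 1 close to WT. Its log2 fold change was 0.39 ± 0.11 (SE, 95% interval 0.13 to 0.64; edgeR adjusted p = 0.118), or 1.31-fold higher, and the DESeq2 adjusted p was 0.0225. Kcnmb2 averaged 4.44 ± 0.715 CPM in Tlr7-/- libraries and 3.69 ± 0.518 CPM in WT libraries (SD, n = 3 each), and the groups overlapped (log2 fold change 0.27 ± 0.20, SE; edgeR adjusted p = 0.381).

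Of the SK genes Kcnn1 had no overlap between the genotypes, and Kcnn2 and Kcnn3 overlapped. Kcnn1 had 23, 22.6 and 22.2 CPM in Tlr7-/- libraries, against 28.7, 27.8 and 25.1 CPM in WT libraries, a log2 estimate of −0.27 ± 0.09 (SE, 95% interval −0.48 to −0.06; edgeR adjusted p = 0.133). DESeq2 gave Kcnn1 an adjusted p of 0.0805. Kcnn2 averaged 30.3 ± 4.37 CPM in Tlr7-/- libraries and 27.8 ± 2.56 CPM in WT libraries (SD, n = 3 each). The log2 estimate for Kcnn2 was 0.12 with a 95% interval, −0.18 to 0.43, that spans no change (edgeR adjusted p = 0.540). Kcnn3 averaged 15.8 ± 3.30 CPM in Tlr7-/- libraries and 16.8 ± 0.880 CPM in WT libraries (SD, n = 3 each). The log2 estimate for Kcnn3 was −0.09 with an interval of −0.46 to 0.29 (edgeR adjusted p = 0.729). The spread of Kcnn3 lay within the Tlr7-/- group, where replicate 1 had 19.5 CPM and replicates 2 and 3 had 13.1 and 14.8 CPM, on both sides of the WT values of 17.7, 16.6 and 16 CPM.

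These RNA values are per library of mixed cells, so fewer cells that express a gene and less RNA of it per cell cannot be told apart. Markers of the oligodendrocyte lineage moved in the direction of Kcnmb4 and Kcnn1. Their summed level was 1065, 786 and 900 CPM in Tlr7-/- libraries, against 1534, 1522 and 1478 CPM in WT libraries. Of the 14 markers, 11 were lower in every Tlr7-/- library than in any WT library, beside 16.2% of all tested genes. None of the 14 was at 0 in every library, but Mog, a myelin gene, had 0 counts in Tlr7-/- replicate 2. Among the markers Gpr17, a receptor of newly committed oligodendrocytes, averaged 124 ± 12.2 CPM in Tlr7-/- libraries and 273 ± 40.5 CPM in WT libraries (SD, n = 3 each). Their part in the lower Kcnmb4 and Kcnn1 was not tested.

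Leaving out Tlr7-/- replicate 1 changed the calls. Without it 3 of 6 members passed in edgeR, beside 49.1% of all tested genes (6922), 24.3% higher and 24.7% lower. Kcnmb4 and Kcnn1 fell, with log2 fold changes of −0.80 (edgeR adjusted p = 0.000157) and −0.28 (edgeR adjusted p = 0.0241), and Kcnma1 rose by 0.49 (edgeR adjusted p = 0.000171). Leaving out any other single library left no member past the threshold.

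A fit with 3 groups (Tlr7-/- replicate 1, Tlr7-/- replicates 2 and 3, and WT) gave each part of the Tlr7-/- group its own contrast with WT, with the spread pooled over libraries. In Tlr7-/- replicate 1 none of the 6 members passed, beside 1.43% of all tested genes (200), 0.889% higher and 0.545% lower. Kcnmb4 came nearest there, with an estimate of −0.42 ± 0.12 (log2, SE; edgeR adjusted p = 0.139), followed by Kcnn1 at −0.24 (edgeR adjusted p = 0.340) and Kcnma1 at 0.15 (edgeR adjusted p = 0.374). These 3 had the same sign as in the other Tlr7-/- libraries, as did Kcnn2. Kcnn3 had the opposite sign, at 0.21, and so did Kcnmb2, at −0.0167.

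In Tlr7-/- replicates 2 and 3 against WT, 3 of 6 members passed, beside 49.6% of all tested genes, 24.4% higher and 25.2% lower, so the share of members called was close to that of the whole table. Kcnmb4 fell by 0.80 on the log2 scale (SE 0.10; edgeR adjusted p = 0.000167), Kcnn1 fell by 0.28 (SE 0.09; edgeR adjusted p = 0.0248) and Kcnma1 rose by 0.49 (SE 0.06; edgeR adjusted p = 0.000173). Kcnn1 was not past the threshold without WT replicate 1 (edgeR adjusted p = 0.0818) or WT replicate 2 (edgeR adjusted p = 0.0942). Of the members that did not pass, Kcnmb2 had a log2 fold change of 0.39 (edgeR adjusted p = 0.101), Kcnn3 one of −0.27 (edgeR adjusted p = 0.0592) and Kcnn2 one of 0.13 (edgeR adjusted p = 0.435). Kcnn2, the SK pore gene with the highest TPM, thus had similar small positive estimates in both parts of the Tlr7-/- group, 0.11 in replicate 1 and 0.13 in replicates 2 and 3.

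**Figure D2:**
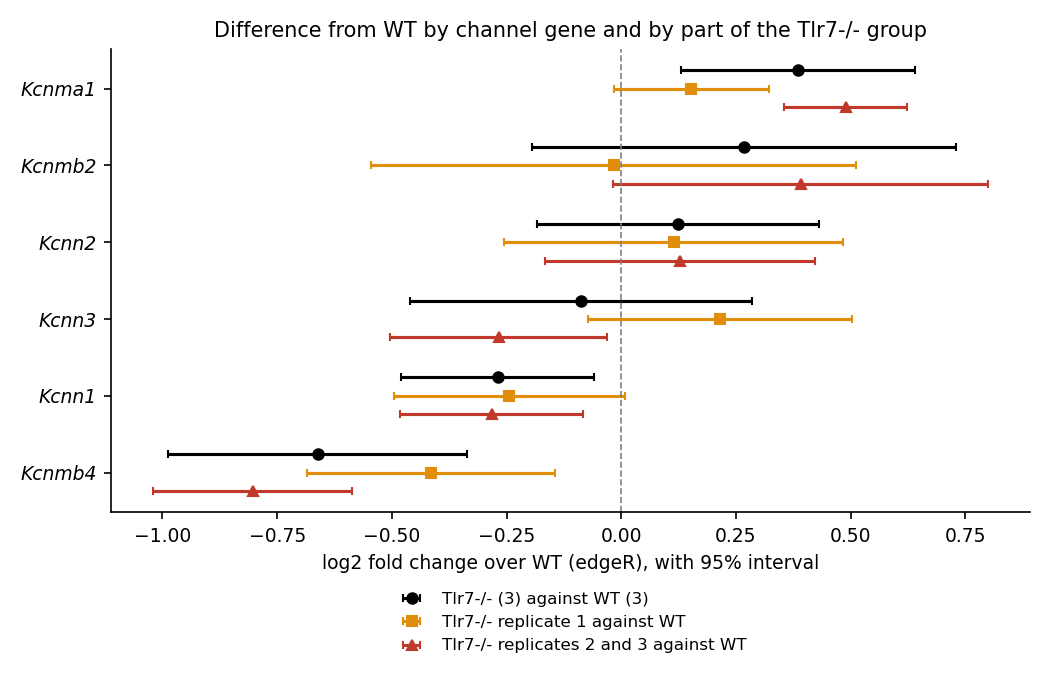
Log2 fold change of each channel gene against WT (points, with 95% intervals from edgeR) for all Tlr7-/- libraries, for Tlr7-/- replicates 2 and 3 and for Tlr7-/- replicate 1. Kcnmb4 was below 0 in all 3 contrasts, at −0.66, −0.80 and −0.42, while Kcnn3 lay on either side of 0, at −0.27 in replicates 2 and 3 and 0.21 in replicate 1.

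The difference between the 2 parts of the Tlr7-/- group was itself tested. In Tlr7-/- replicates 2 and 3 against Tlr7-/- replicate 1, 3 of 6 members passed, beside 31.6% of all tested genes, 15% higher and 16.6% lower. Kcnma1 was higher by 0.34 on the log2 scale (edgeR adjusted p = 0.0131), whereas Kcnmb4 was lower, at −0.39 (edgeR adjusted p = 0.0433), and Kcnn3 was lower, at −0.48 (edgeR adjusted p = 0.0254). Kcnn1 and Kcnn2 did not pass, with log2 differences of −0.04 and 0.01 and 95% intervals of −0.30 to 0.23 for Kcnn1 and −0.38 to 0.41 for Kcnn2. WT libraries enter this test only through the spread: without WT replicate 2 Kcnma1 alone passed, with edgeR adjusted p of 0.0769 for Kcnmb4 and 0.0578 for Kcnn3, and without WT replicate 1 Kcnmb4 did not (edgeR adjusted p = 0.0550).

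The difference of Tlr7-/- replicates 2 and 3 from WT ran with gene length and GC content over all tested genes, and the 6 channel genes differ widely in both. Kcnma1 has a longer longest transcript than 98.7% of tested genes and Kcnn3 than 94.4%, whereas Kcnmb4 is longer than 12%. The fitted trend for genes of the length and GC content of Kcnma1 was 0.55 higher on the log2 scale in Tlr7-/- replicates 2 and 3 than in WT, while Kcnma1 itself was 0.49 higher. For Kcnmb4 the trend was −0.01, beside a change of −0.80, and for Kcnn3 it was 0.44, beside −0.27.

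With that trend taken out, the Kcnma1 difference between all Tlr7-/- libraries and WT turned to −0.04 (95% interval −0.19 to 0.11; edgeR adjusted p = 0.736), and Kcnmb2, which had an estimate of 0.27 before, was at 0.03 (edgeR adjusted p = 0.946). Kcnmb4 kept most of its difference, at −0.63 (95% interval −0.97 to −0.29; edgeR adjusted p = 0.173). In Tlr7-/- replicates 2 and 3 against WT, 2 of 6 members passed after the correction: Kcnmb4 fell by 0.79 (edgeR adjusted p = 0.000785) and Kcnn3 fell by 0.70 (edgeR adjusted p = 0.00153). Kcnn1, at −0.11, and Kcnma1, at −0.06, no longer did (edgeR adjusted p = 0.335 for Kcnn1 and 0.483 for Kcnma1). The share of all tested genes that passed after the correction in these parts of the Tlr7-/- group is not given here. Counts of genes passing after it, here and below, therefore have no background beside them. The size of the Kcnn3 value depended on the length assumed. With the 2884 bp of the authors' gene model in place of the 8314 bp of the longest transcript, Kcnn3 fell by 0.37 (edgeR adjusted p = 0.0286), and Kcnmb4 fell by 0.73 (edgeR adjusted p = 0.00108).

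**Figure D3:**
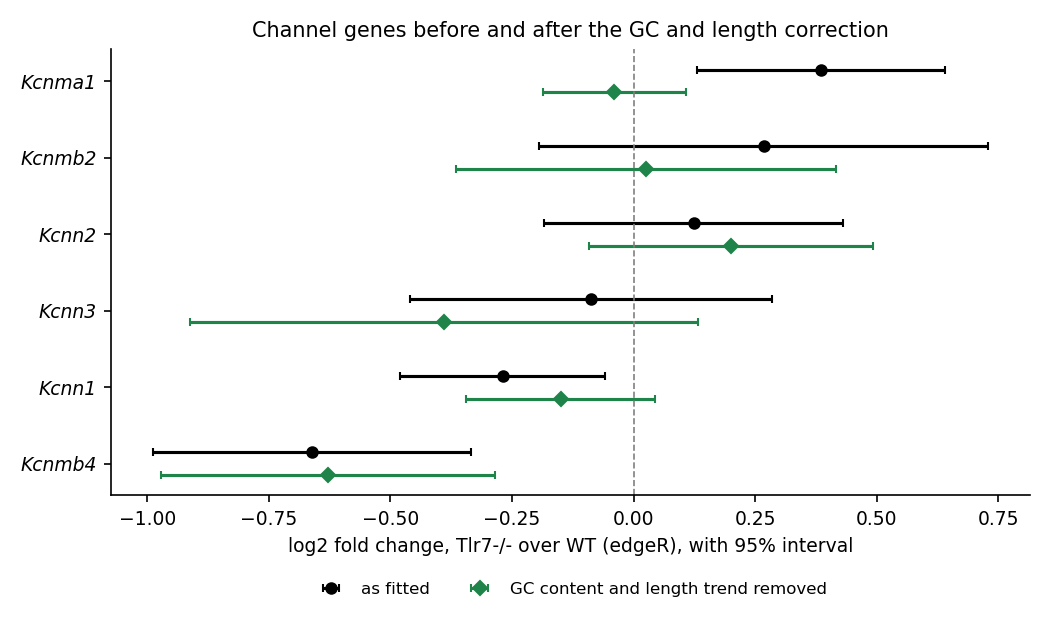
Log2 fold change of each channel gene in edgeR before and after the trend with GC content and transcript length was removed, for all Tlr7-/- libraries against WT, with 95% intervals. Kcnma1 moved to −0.04 for all libraries, while Kcnmb4 stayed near its uncorrected value, at −0.63.

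Ratios within a library do not depend on a scaling factor shared by its genes, but they do depend on any trend with gene length and GC content. The ratio of Kcnmb4 to Kcnma1 TPM, which sets the RNA of a β subunit beside that of the pore, was 1.02, 0.549 and 0.697 in Tlr7-/- libraries, against 1.5, 1.44 and 1.61 in WT libraries. It averaged 0.757 ± 0.243 in Tlr7-/- libraries and 1.52 ± 0.0871 in WT libraries (SD, n = 3 each), with no overlap (exact permutation test of both sides, p = 0.1, the smallest that 3 against 3 libraries can give; 0.6 after Benjamini-Hochberg adjustment over 6 quantities). The ratios are not corrected for that trend, which in edgeR took Kcnma1 to −0.04 and left Kcnmb4 at −0.63. They also rest on the Kcnmb4 level of the count table, which was 7.14-fold that of the authors' deposited edgeR table. The ratio of Kcnmb2 to Kcnma1 differed less than the spread between replicates, at 0.0606 ± 0.00538 in Tlr7-/- libraries and 0.0657 ± 0.00878 in WT libraries (SD, n = 3 each; exact permutation p = 0.6).

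The summed TPM of the 3 SK genes was 56.7 ± 4.23 in Tlr7-/- libraries and 54.9 ± 1.5 in WT libraries (SD, n = 3 each; exact permutation p = 0.5). Kcnn2 made up 44.1% ± 4.01 of that sum in Tlr7-/- libraries and 39.1% ± 3.36 in WT libraries (exact permutation p = 0.3). Kcnn1 made up 26.6% ± 2.75 in Tlr7-/- libraries and 30.8% ± 2.14 in WT libraries, and Kcnn3 29.2% ± 4.03 in Tlr7-/- libraries and 30.1% ± 1.27 in WT libraries (SD, n = 3 each; exact permutation p = 0.2 for Kcnn1 and 0.8 for Kcnn3). Each of these 4 SK quantities overlapped between the genotypes.

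**Figure D4:**
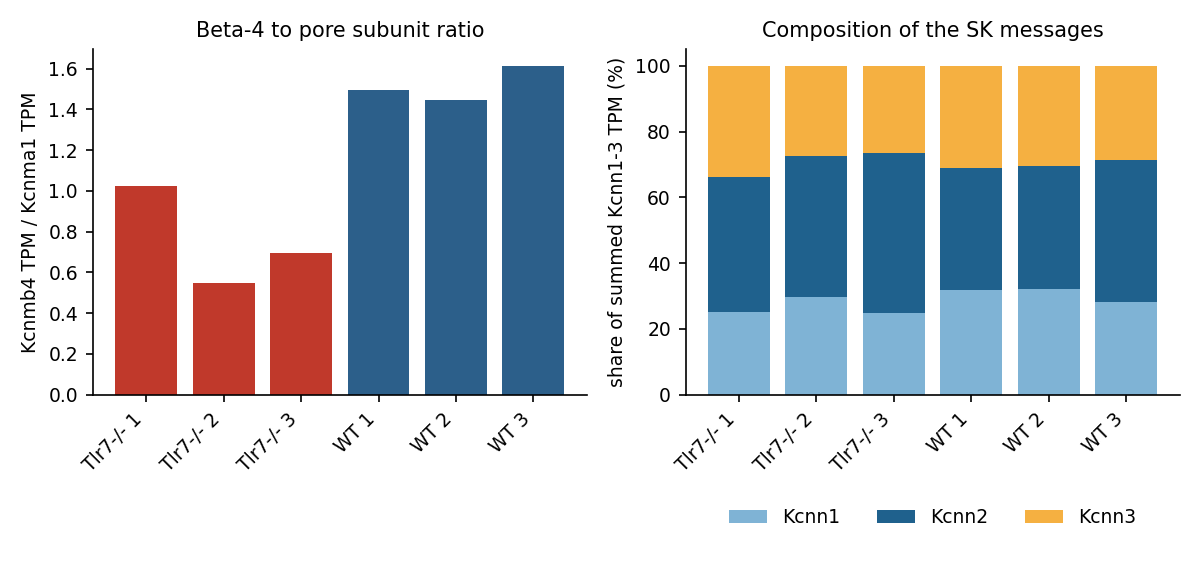
Ratio of Kcnmb4 to Kcnma1 TPM (1 bar per library), and shares of Kcnn1, Kcnn2 and Kcnn3 in their summed TPM (stacked bars), in each library with Tlr7-/- left of WT. The ratio was 0.549 to 1.02 in Tlr7-/- libraries and 1.44 to 1.61 in WT libraries, whereas the SK shares overlapped.

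Across the 6 libraries the TMM-scaled log2 CPM of Kcnma1 and Kcnmb4 ran against each other (Pearson r = −0.97), and Kcnma1 ran with Kcnmb2 (r = 0.80) and against Kcnn1 (r = −0.83). Kcnn2 was the least tied to the rest, at r = 0.21 with Kcnma1 and 0.04 with Kcnn3. These are descriptions of 6 libraries that share the genotype split and the split within the Tlr7-/- group. The 3 genes most like each member by the same measure were Gm14412, Zfp260 and Appl1 for Kcnma1 (r of 0.999, 0.998 and 0.998), Park7, Manf and Eef1e1 for Kcnmb4 (r of 0.998, 0.996 and 0.995), and Bmi1, Tsr1 and Csf1 for Kcnmb2 (r of 0.999, 0.99 and 0.989). For the SK genes they were Slbp, Ache and Ddt for Kcnn1 (r of 0.995, 0.994 and 0.994), P2rx6, Scrn1 and Gpr45 for Kcnn2 (r of 0.983, 0.977 and 0.974), and Tab1, Fam102a and Lrrc32 for Kcnn3 (r of 0.998, 0.996 and 0.994). At an r of 0.99 or more, 111 genes ran with Kcnma1, 21 with Kcnmb4, 10 with Kcnn1, 5 with Kcnn3, 2 with Kcnmb2 and 0 with Kcnn2, so the Kcnma1 pattern was the most widely shared of the 6.

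The authors deposited 2 comparisons of the genotypes, and they differ for some members. In the authors' deposited table that carries the counts, Kcnmb4 had a log2 fold change of −0.67 with a false discovery rate of 0.0160, Kcnma1 0.38 with 0.243 and Kcnn1 −0.27 with 0.559. In the authors' deposited edgeR table Kcnmb4 had −0.39 with a false discovery rate of 0.471, Kcnma1 0.35 with 0.207, Kcnn1 −0.30 with 0.391 and Kcnn3 0.22 with 0.583. Kcnn3 thus had another sign in the authors' deposited edgeR table than the −0.09 of their deposited count table.

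The levels behind the 2 tables differed for the same genes. Kcnmb4 averaged 4.24 CPM in the authors' deposited edgeR table and 30.3 CPM in the count table, 7.14-fold lower in the edgeR table, and 1.27% of 12974 genes had a ratio this low or lower. Kcnn3 averaged 54.3 CPM in the authors' deposited edgeR table and 16.2 CPM in the count table, 3.35-fold higher, and 0.170% of genes had a ratio at least as high. The other 4 members were within the 1.5-fold range that held 92.6% of genes. Exons of Kcnmb4 overlap those of 2 antisense genes, Kcnmb4os1 and Kcnmb4os2, which have rows in the edgeR table but not in the count table; in the authors' deposited edgeR table Kcnmb4os2 averaged 2.66 CPM with a log2 fold change of −0.75 (false discovery rate 0.119). The strand setting of the counting is not given in the sources used here, so reads of Kcnmb4 and of these antisense genes cannot be told apart where their exons overlap.

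**Figure D5:**
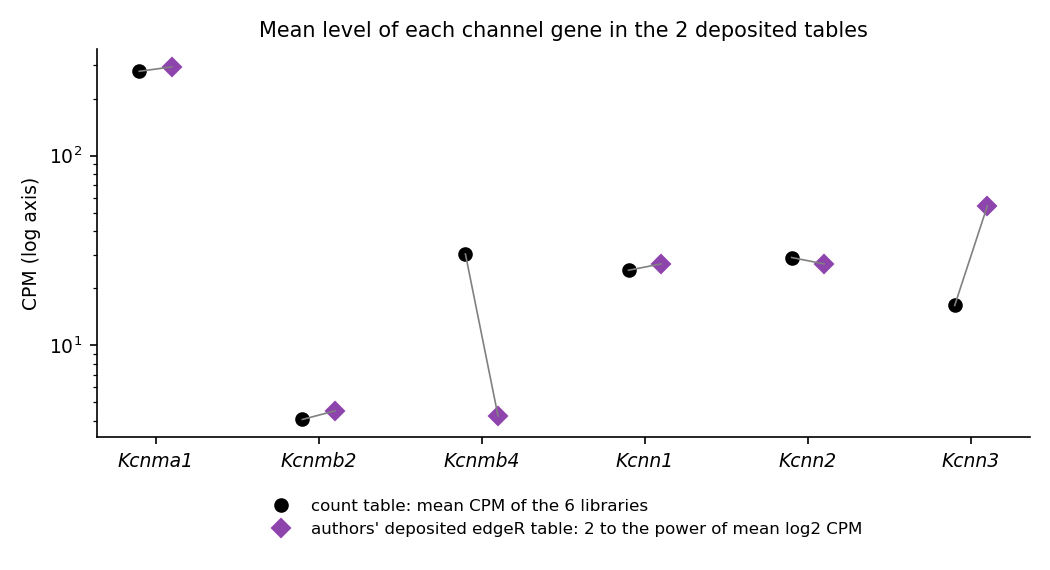
Mean level in CPM (log axis) of the 6 channel genes in the authors' 2 deposited tables. Kcnmb4 averaged 4.24 CPM in the edgeR table and 30.3 CPM in the count table, and Kcnn3 54.3 CPM in the edgeR table and 16.2 CPM in the count table, while the other 4 lay close together.

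Genes that work with these channels were read from 4 lists. In none of the lists did a gene pass edgeR's adjusted p of 0.05 for Tlr7-/- against WT; the values below are of the genes with the smallest p in each list. Of the other channel genes of the family, 5 of 10 were tested, with a median log2 fold change of 0.35 beside 0.00 over all tested genes. Kcnt2, a sodium-activated relative of Kcnma1, had 11.7, 28.4 and 28.6 CPM in Tlr7-/- libraries, against 13.2, 13.2 and 14.1 CPM in WT libraries, so that the first Tlr7-/- library was below every WT library. In Tlr7-/- replicates 2 and 3 against WT, Kcnt2 rose by 1.08, its sister gene Kcnt1 by 0.52 and the BK γ subunit gene Lrrc55 by 0.72 (edgeR adjusted p = 2.78e-05 for Kcnt2, 0.000234 for Kcnt1 and 0.000818 for Lrrc55). After the correction for GC content and length Kcnt2, at 0.26, was no longer past the threshold (edgeR adjusted p = 0.0600), while Kcnt1, at 0.43, and Lrrc55, at 0.71, were (edgeR adjusted p = 0.000837 for Kcnt1 and 0.00172 for Lrrc55). In Tlr7-/- replicate 1 the uncorrected log2 differences were −0.21 for Kcnt2, −0.07 for Kcnt1 and 0.08 for Lrrc55.

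The partners of the channel proteins split in both directions, as did the members. All 13 were tested, with a median log2 fold change of −0.05; 2 were higher and 4 lower without overlap between genotypes, beside 16.5% higher and 16.2% lower of all tested genes. Against WT, 4 rose and 4 fell in Tlr7-/- replicates 2 and 3, beside 24.4% higher and 25.2% lower of all tested genes. After the correction for GC content and length 1 rose and 5 fell. The median log2 difference of the list in Tlr7-/- replicate 1 against WT was −0.04. Calm3, which encodes calmodulin, the calcium sensor of SK channels, averaged 1700 ± 262 CPM in Tlr7-/- libraries and 2236 ± 62.9 CPM in WT libraries (SD, n = 3 each; log2 fold change −0.40; edgeR adjusted p = 0.121). Fmr1, whose product binds the BK β4 subunit, averaged 44.4 ± 5.18 CPM in Tlr7-/- libraries and 33.3 ± 2.07 CPM in WT libraries (log2 fold change 0.41; edgeR adjusted p = 0.116). Actn2, which encodes an actinin that binds SK2, and Csnk2a2, a catalytic subunit of the kinase that phosphorylates SK-bound calmodulin, had log2 fold changes of −0.26 and 0.17 (edgeR adjusted p = 0.174 for Actn2 and 0.170 for Csnk2a2). After the correction for GC content and length the values were −0.12 for Calm3, 0.04 for Fmr1, −0.13 for Actn2 and −0.01 for Csnk2a2.

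The calcium sources, that is the calcium channels, NMDA receptors and release channels that can supply the calcium that opens BK and SK channels, had a median log2 fold change of 0.44 over the 17 listed, all tested. Of these, 9 were higher in every Tlr7-/- library than in any WT library, beside 16.5% of all tested genes, and 0 were lower in every Tlr7-/- library. Cacna1e, the pore of R-type calcium channels, averaged 360 ± 10.1 CPM in Tlr7-/- libraries and 238 ± 11.1 CPM in WT libraries (SD, n = 3 each; log2 fold change 0.60; edgeR adjusted p = 0.112). Grin2a and Grin2b, NMDA receptor subunits, had log2 fold changes of 0.61 and 0.89, and Ryr3, a calcium release channel, one of 0.75 (edgeR adjusted p = 0.112 for Grin2a, 0.116 for Grin2b and 0.112 for Ryr3). Of the 17, 10 rose and 0 fell in Tlr7-/- replicates 2 and 3 against WT, beside 24.4% higher and 25.2% lower of all tested genes, and in Tlr7-/- replicate 1 against WT 4 rose and 1 fell, beside 0.889% and 0.545%. With the trend with GC content and length taken out, the median of the list for all Tlr7-/- libraries was 0.14, and Cacna1e, Grin2a, Grin2b and Ryr3 were at 0.20, 0.14, 0.30 and 0.35. With it taken out, 8 of the 17 rose in Tlr7-/- replicates 2 and 3 against WT, but the share of all tested genes that did so is not given here.

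Of the calcium buffers and extrusion genes all 12 were tested, with a median log2 fold change of 0.28; 4 were higher and 1 lower without overlap, beside 16.5% higher and 16.2% lower of all tested genes. Of the 12, 8 rose and 2 fell in Tlr7-/- replicates 2 and 3 against WT, beside 24.4% higher and 25.2% lower of all tested genes. After the correction 4 rose and 3 fell. In Tlr7-/- replicate 1 against WT the median log2 difference of the list was 0.03. The plasma membrane calcium pumps Atp2b1 and Atp2b4 had log2 fold changes of 0.53 and 0.45, the sodium-calcium exchanger Slc8a1 one of 0.33, and Hpca, the calcium sensor hippocalcin, one of −0.30 (edgeR adjusted p = 0.116 for each). After the correction for GC content and length Atp2b1 was at 0.17, Atp2b4 at 0.08, Hpca at 0.00 and Slc8a1 at −0.30. The Slc8a1 sign depended on the length assumed: with the authors' gene-model length Slc8a1 was at 0.12, and Hpca at −0.08.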

How the data were processed

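Polyadenylated RNA of 3 Tlr7-/- and 3 WT cultures of mixed cortical and hippocampal neurons was sequenced. Per the file headers the authors' main table holds raw counts per gene, which were the main measurement, with RPKM values, which the authors scaled by length and depth, and TPM values of the authors, each library summing to 1000000. Its fold change and p-value columns are the authors' own, by a test not stated. A second deposited table gives the authors' log2 fold changes, mean log2 CPM and p-values from edgeR, per the file headers. The submitters' processing notes name GRCm38.p6, bcl2fastq, HISAT2, featureCounts and edgeR, with no versions. All value columns were mapped to samples.

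Genes were filtered with filterByExpr, leaving 13947 of 25814 genes with 99.96% of counts. TMM factors were 0.988 to 1.02, and the main test was that of edgeR 4.0.16 (glmQLFit, robust, then glmQLFTest, which is two-sided) under R 4.3.3. Benjamini-Hochberg adjustment ran over all tested genes, with a threshold of 0.05. The 3-group fit used the library-name style as its split. Adjusted p-values in sentences that name edgeR come from these fits. Ratios and shares were compared by two-sided exact permutation tests. GC content and length came from the longest GENCODE M21 transcript, present for 99.9% of genes, and entered as natural splines with 5 degrees of freedom. DESeq2 1.42.0 and limma 3.58.1 on log2(TPM + 0.1, 0.5 or 1) were alternatives, beside other filters, other scaling, a replicate block and leaving out each library. No pair of libraries of the same genotype was a duplicate: chi-square over degrees of freedom was 4.27 to 75.5. Pairs across the genotypes were not compared in this way. Limits from counts cover counting error only. The intervals of log2 fold changes come from the edgeR fits and also cover the spread between libraries.

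The 6 genes, 4 lists of related genes and 7 lists of cell type markers were chosen with earlier results of these data known. Named genes were all 6 members, up to 4 tested genes with the smallest p per list, and the 3 genes most correlated with each member (log2 CPM, prior count 2). Gpr17 was chosen after its values were seen. Figures were drawn with matplotlib 3.10.9.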

Additional observations from a re-analysis of the deposited data

Results flagged for a closer look

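Of the channel genes 3 had effects that differed between the 2 parts of the Tlr7-/- group, by the test of the difference itself between Tlr7-/- replicates 2 and 3 and Tlr7-/- replicate 1 in edgeR. Kcnma1 had a log2 difference of 0.34 (edgeR adjusted p = 0.0131), with TMM-scaled levels of 353 and 325 CPM in Tlr7-/- replicates 2 and 3 and 268 CPM in Tlr7-/- replicate 1. Kcnmb4 had one of −0.39 (edgeR adjusted p = 0.0433), with 19.7 and 22.9 CPM in Tlr7-/- replicates 2 and 3 and 27.9 CPM in Tlr7-/- replicate 1. Kcnn3 had one of −0.48 (edgeR adjusted p = 0.0254), with 13.1 and 14.8 CPM in Tlr7-/- replicates 2 and 3 and 19.5 CPM in Tlr7-/- replicate 1. Of all tested genes 31.6% passed the same test. With the trend with GC content and length taken out the difference was −0.05 for Kcnma1, −0.43 for Kcnmb4 and −0.80 for Kcnn3 (edgeR adjusted p = 0.696 for Kcnma1, 0.0541 for Kcnmb4 and 0.00494 for Kcnn3). The naming style splits the Tlr7-/- group the same way, and its part in these differences cannot be told apart from other differences between these libraries.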

How the results depend on the processing

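Under 19 alternatives for each of the 6 channel genes, 103 values kept direction and side of the threshold, 5 passed the threshold and 6 changed sign. Those that changed sign were Kcnma1 at −0.0398 with GC and length offsets, −0.0407 with these and the replicate block, and −0.0314 with offsets that use the authors' gene-model length (chosen after seeing the data). The others were Kcnmb2 at −0.0167 and Kcnn3 at 0.21 with the naming style as a covariate, and Kcnn3 at 0.0344 without Tlr7-/- replicate 2 (−0.267 to 0.0344 over all libraries left out in turn). The naming style as a covariate also turned Kcnt2 to −0.21, Kcnt1 to −0.0701 and Kcnu1 to −0.0269. GC and length offsets turned Csnk2a2 to −0.011, Hpca to 0.0037 and Slc8a1 to −0.30. With the replicate block added Csnk2a2 was at −0.0107 and Slc8a1 at −0.34, and with the gene-model length Csnk2a2 was at −0.0522. The difference in summed SK level, Tlr7-/- minus WT, was 1.72 TPM but −76.7 in raw counts and −1.25 in RPKM.

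The count of genes past the threshold, 0 in edgeR with 3932 at an unadjusted p under 0.05, was 1785 by DESeq2, 200 with the naming style as a covariate, and 1 each without a filter and with GC and length offsets. No member passed in limma on TPM at any of the 3 pseudocounts, and 2 did by DESeq2. In Tlr7-/- replicates 2 and 3 against replicate 1, 1 member passed with either GC offset, against 3 without it.

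Leaving out 1 library at a time gave 0 to 6922 genes and 0 to 3 members, the highest without Tlr7-/- replicate 1; 2 to 3 members in Tlr7-/- replicates 2 and 3 against WT; and 1 to 3 in Tlr7-/- replicates 2 and 3 against replicate 1. The difference in summed SK level was −0.0212 to 4.07 TPM, below 0 without Tlr7-/- replicate 3, and that in the Kcnn3 share −3.19 to 0.533 percentage points, above 0 without Tlr7-/- replicate 2 (0.0117) or 3. The causes were not tested, except that fewer libraries enter each.

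The labels give no pairing of libraries by replicate number. Deviations of same-numbered libraries from their group means correlated at 0.241, −0.0839 and 0.264. Differently numbered libraries were not compared, so these values cannot decide whether the libraries were paired. With the replicate block 0 genes passed, and Kcnmb4 had a log2 fold change of −0.67 (edgeR adjusted p = 0.0836) and Kcnma1 one of 0.38 (edgeR adjusted p = 0.0910). Depth limits Kcnmb2 most, at 77 to 123 counts.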

Other observations

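Markers of other cell types, listed beside the channel genes, gave the following levels. Summed astrocyte markers were at 4160 to 5336 CPM in Tlr7-/- libraries and 4969 to 5183 CPM in WT libraries, with 3 of 9 lower in every Tlr7-/- library. Excitatory markers were at 2938 to 3380 CPM in Tlr7-/- libraries and 2939 to 3085 CPM in WT libraries, and GABAergic markers at 1445 to 1564 CPM in Tlr7-/- libraries and 1522 to 1619 CPM in WT libraries. Without overlap between genotypes, 2 excitatory markers were higher and 1 lower, and 3 GABAergic markers were higher and 2 lower. Of all tested genes 16.5% were higher and 16.2% lower without overlap. Microglial markers were low, at 3.52 to 17.5 CPM in Tlr7-/- libraries and 2.23 to 14.7 CPM in WT libraries, with Tmem119 at 3 counts or fewer in every library. Endothelial, pericyte and smooth muscle markers were at 20.5 to 21.5 CPM in Tlr7-/- libraries and 17.2 to 19.8 CPM in WT libraries, with Cldn5 at 3 counts or fewer in every library. Their part in the levels of the channel genes was not tested.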
